A study of Homo sapiens with 20 samples.

Results

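The genes described here encode the main folding machines of the cytosol and of mitochondria. They are the 8 subunits of the CCT chaperonin, 5 mitochondrial chaperones, cytosolic HSP90 with its cochaperones, the HSP70 and HSP110 proteins, 7 J-domain cochaperones, 3 genes of the small heat shock and BAG families, and 2 heat shock factors. They were chosen by symbol, as 36 genes listed by role, and a gene was used where a probe set was annotated to that symbol alone. Such probe sets existed for 34 of the 36, and all 34 passed the floor on low signal (log2 of at least 5 in at least 2 arrays), among 15850 of 18416 genes that did. AHSA1 and HSF2 had no probe set annotated to them alone and are not analysed here.

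Transcripts were profiled in 5 lines labelled as classical Hodgkin lymphoma, a cancer of B cell origin, to ask which transcripts respond to the transcription factor FOXO1. Every line stably expressed FOXO1(3A)ER in both arms, a FOXO1 mutant that AKT cannot inactivate, fused to an oestrogen receptor domain that 4-hydroxytamoxifen (4-OHT) switches on. The groups were cells of UHO-1, SUP-HD1, KM-H2, L428 and the line labelled L1236 with 4-OHT for 24 h, each set against cells of its own line with ethanol vehicle for 24 h, with 2 arrays a group and 20 arrays in all. The dose on the labels is 200 µM, but the sentence that states it speaks of a different fusion (KLF4ER) and may not apply. The sources used here do not say whether each line is a clone or a pool. No array is of a line without the fusion, so an effect of 4-OHT itself and one of FOXO1 cannot be told apart. The labels say that the experiment was done 2 times and nothing else shows separate cultures, so the p-values rest on array-to-array spread that may be technical only. In bulk RNA, fewer cells of a type and less RNA per cell cannot be told apart.

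The arrays labelled L1236 went against their label in T cell markers and in some Hodgkin line markers. CD3D, CD3E and CD3G, chains of the T cell receptor complex, lay between 11.2 and 12.3 log2 units in all 4 of them and between 4.35 and 6.43 in the other 16 arrays. IRF4, which Hodgkin lines express, lay between 6.14 and 6.49 there and between 11 and 12.3 elsewhere. Of the other Hodgkin line markers listed, CD40, TRAF1 and FSCN1 were also lowest there. TNFRSF8 was not, at 7.49 to 7.84 against 7.02 to 7.33 in SUP-HD1. CCL17 and CCL22 were lower in KM-H2. Arrays of KM-H2 and L428 were normalised separately from the others, so comparisons of marker levels with them span that difference. The 7 Hodgkin line markers summed to 45.9 to 47.3 with 4-OHT and 45.6 to 47.4 with vehicle there, the lowest of the 5 lines. All 5 T cell markers listed passed the floor in the line labelled L1236, and their summed signal was 52.6 to 53.2 with 4-OHT and 54.1 to 54.2 with vehicle, whereas it was 23 to 29.4 in the other lines. In these arrays the summed signal of 5 myeloid markers was 30.9 to 31 with 4-OHT, against 26.6 to 27.4 with vehicle, with LYZ changed by 3.66 and the other 4 by −0.10 to 0.14. That of 5 B cell markers was 36 with 4-OHT, against 33.3 to 33.9 with vehicle, with CD79A changed by 2.36. CD79A lay between 9.28 and 11.7 there and CD79B between 7.09 and 7.57, both above every other line. PAX5 and POU2AF1 were not highest there, with PAX5 at 6.32 to 6.53 against 9.34 to 9.76 in UHO-1. The summed signal of 7 Hodgkin line markers was 55.4 to 55.9 with 4-OHT, against 58.2 to 58.5 with vehicle, in KM-H2, and 62.2 to 62.4, against 65.6 to 65.7, in L428. The part of any of these in the results was not tested. Averages of the members over 5 lines are also given without the line labelled L1236. FBXO32, a ubiquitin ligase gene that FOXO factors induce, rose in UHO-1 (0.74), SUP-HD1 (0.51), KM-H2 (5.94) and L428 (3.89), and differed by 0.12 ± 0.084 (SE) in the line labelled L1236 (limma adjusted p = 0.384). MYC fell with 4-OHT in all 5 lines, with changes of −2.44 in KM-H2, −1.37 in the line labelled L1236, −0.61 in L428, −0.43 in SUP-HD1 and −0.21 in UHO-1 (limma adjusted p at most 0.0468). In UHO-1 the arms of MYC overlapped, with means of 10.66 (SD 0.18) with 4-OHT and 10.87 (SD 0.143) with vehicle. Whether the FOXO1 and ESR1 probe sets read the fusion was not tested, so they are not used as a check of it.

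Molecular chaperones bind unfolded proteins and help them reach or keep their native shape. HSP70 proteins bind short stretches of unfolded chain under the control of J-domain cochaperones, HSP90 completes the folding of kinases and hormone receptors, and the ring-shaped chaperonins enclose a client in a chamber, CCT in the cytosol and HSP60 with its lid HSP10 in the mitochondrial matrix. Heat shock factors switch many of these genes on under stress through heat shock elements, and in growing cells factors such as MYC, which binds E-box sequences, raise some of them.

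Promoter windows from RefSeq (GRCh38.p14), from 250 bases before to 50 after a gene's start, were available for 32 of the 36 genes. They were searched on both strands for a heat shock element of 3 units (TTCNNGAANNTTC, which contains both 2-unit forms below), for 2 units in either arrangement (TTCNNGAA or GAANNTTC), for the E-box CACGTG and for the forkhead sequence TGTTTAC. The 3-unit element stood in windows of 6 of 32 genes (18.8%: DNAJA1, DNAJB6, HSP90AA1, HSP90AB1, HSPA8 and HSPD1), against 0.608% of all 27305 genes with a window. TTCNNGAA was present for 11 genes (34.4%, against 9.46% of all) and GAANNTTC for 11 (34.4%, against 8.21%). The E-box stood in windows of 4 genes (HSF2, HSPA9, HSPD1 and HSPE1; 12.5%, against 8.77% of all), and the forkhead sequence in that of HSP90AA1 alone (3.12%, against 4.19%). These are matches of letters and not shown sites. The windows below are of genes whose changes are described in full, of HSPE1, which lies beside HSPD1, and of HSPA8, which has the 3-unit element on both strands. Capitals mark heat shock elements of 2 or 3 units, except in HSPE1, where they mark the E-box.
HSPA4L, chr4:127782072-127782371, plus strand: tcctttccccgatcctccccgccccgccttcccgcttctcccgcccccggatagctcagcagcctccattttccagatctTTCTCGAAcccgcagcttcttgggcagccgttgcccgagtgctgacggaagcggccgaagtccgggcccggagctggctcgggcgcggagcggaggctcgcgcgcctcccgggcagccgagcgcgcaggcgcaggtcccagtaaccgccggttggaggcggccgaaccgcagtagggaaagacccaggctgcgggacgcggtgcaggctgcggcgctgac
TRAP1, chr16:3717475-3717774, minus strand: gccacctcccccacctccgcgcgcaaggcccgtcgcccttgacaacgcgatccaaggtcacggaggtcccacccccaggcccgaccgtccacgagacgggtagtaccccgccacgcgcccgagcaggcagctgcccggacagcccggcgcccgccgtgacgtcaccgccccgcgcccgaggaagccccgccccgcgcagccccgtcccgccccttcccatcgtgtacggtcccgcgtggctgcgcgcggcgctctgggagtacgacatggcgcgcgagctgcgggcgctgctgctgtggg
HSPD1, chr2:197499791-197500090, minus strand: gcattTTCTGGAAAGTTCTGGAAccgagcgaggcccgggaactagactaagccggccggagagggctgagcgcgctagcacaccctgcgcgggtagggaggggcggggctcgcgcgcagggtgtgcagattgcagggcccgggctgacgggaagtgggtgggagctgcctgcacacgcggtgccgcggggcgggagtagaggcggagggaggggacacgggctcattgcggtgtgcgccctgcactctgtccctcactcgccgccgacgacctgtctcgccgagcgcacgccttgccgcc
HSPE1, chr2:197500129-197500428, plus strand: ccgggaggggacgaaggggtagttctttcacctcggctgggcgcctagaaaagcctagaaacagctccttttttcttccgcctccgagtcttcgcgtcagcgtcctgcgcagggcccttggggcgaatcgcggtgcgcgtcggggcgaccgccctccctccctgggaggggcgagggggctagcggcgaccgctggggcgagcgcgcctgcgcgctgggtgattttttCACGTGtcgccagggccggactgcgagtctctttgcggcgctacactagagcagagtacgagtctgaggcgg
HSP90AB1, chr6:44247693-44247992, plus strand: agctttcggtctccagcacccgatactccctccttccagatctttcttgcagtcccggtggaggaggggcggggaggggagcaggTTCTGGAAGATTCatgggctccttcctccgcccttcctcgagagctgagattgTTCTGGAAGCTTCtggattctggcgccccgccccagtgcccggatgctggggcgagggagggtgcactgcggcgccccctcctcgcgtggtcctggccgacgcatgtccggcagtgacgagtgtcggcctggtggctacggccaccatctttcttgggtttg
HSPA8, chr11:123062087-123062386, minus strand: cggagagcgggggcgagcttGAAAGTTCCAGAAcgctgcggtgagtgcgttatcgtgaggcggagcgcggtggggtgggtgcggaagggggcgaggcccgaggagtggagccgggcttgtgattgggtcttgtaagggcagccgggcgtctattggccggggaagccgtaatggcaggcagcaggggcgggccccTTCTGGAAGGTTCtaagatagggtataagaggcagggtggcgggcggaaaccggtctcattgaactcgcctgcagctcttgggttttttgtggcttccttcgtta
HSPD1 and HSPE1, which encode HSP60 and its lid, lie head to head: the HSPE1 window shares 204 bases with the other window of HSPD1, whose start lies 105 bases from that of HSPE1. The E-box lies in the shared stretch, so it counts for both genes. TRAP1 held none of the 5 sequences in its window, and HSPA4L held a single 2-unit element in this one of its 3 windows.

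Most of the chaperone genes were lower with 4-OHT, in some lines far more than in others. A gene is said to have risen or fallen where limma's adjusted p was below 0.05, and changes are differences of log2 signal, 4-OHT minus vehicle. Arms that stand apart are described with 2 arrays a group. The share of all genes whose arms stood apart was not counted, so this is no support beyond limma's test. Averaged over the 5 lines, 25 of 34 fell (73.5%, against 21.2% of all genes) and 2 rose (5.88%, against 17.4%), with a median change of −0.17 among them and −0.02 among all genes. Without the line labelled L1236, 20 of 34 fell (21% of all genes did) and 4 rose (18.2% of all), and the median was −0.11, against −0.03 among all genes.

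By line, the shares differed widely. In KM-H2, 4 of 34 fell, close to the 12.3% of all genes that did, and 6 rose, against 10% of all genes. In L428, 24 fell (17.5% of all genes did) and 1 rose (12% of all). The line labelled L1236 had 28 lower (14.9% of all) and 2 higher (8.25% of all). The share of lower genes was thus close to the background in KM-H2 and far above it in L428 and the line labelled L1236. UHO-1 had 9 lower (11.1% of all) and 2 higher (13.4% of all), and SUP-HD1 had 6 lower (2.35% of all) and 1 higher (3.68% of all). In UHO-1 the count of lower genes was 4 without vehicle array 1 and 5 without 4-OHT array 2, in SUP-HD1 it was 2 without 4-OHT array 2, and in KM-H2 it was 2 without vehicle array 1 or 4-OHT array 2.

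**Figure D1:**
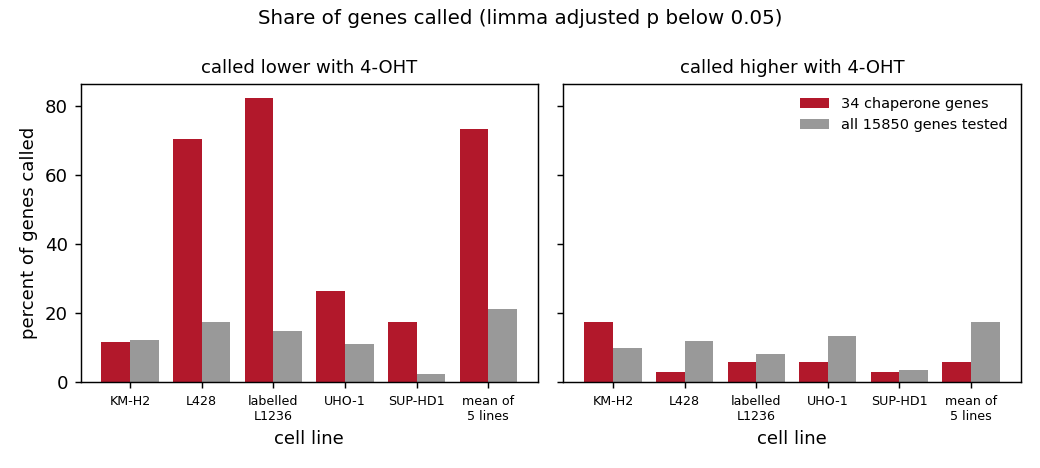
Percent of genes that passed limma's test (adjusted p below 0.05) as lower (left) or higher (right) with 4-OHT in each line and on the mean of the 5 lines, for the 34 chaperone genes (red) and all 15850 genes tested (grey). The red bars for lower genes reach 70.6% in L428 and 82.4% in the line labelled L1236 but 11.8% in KM-H2, where the grey bar is 12.3%.

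**Figure D2:**
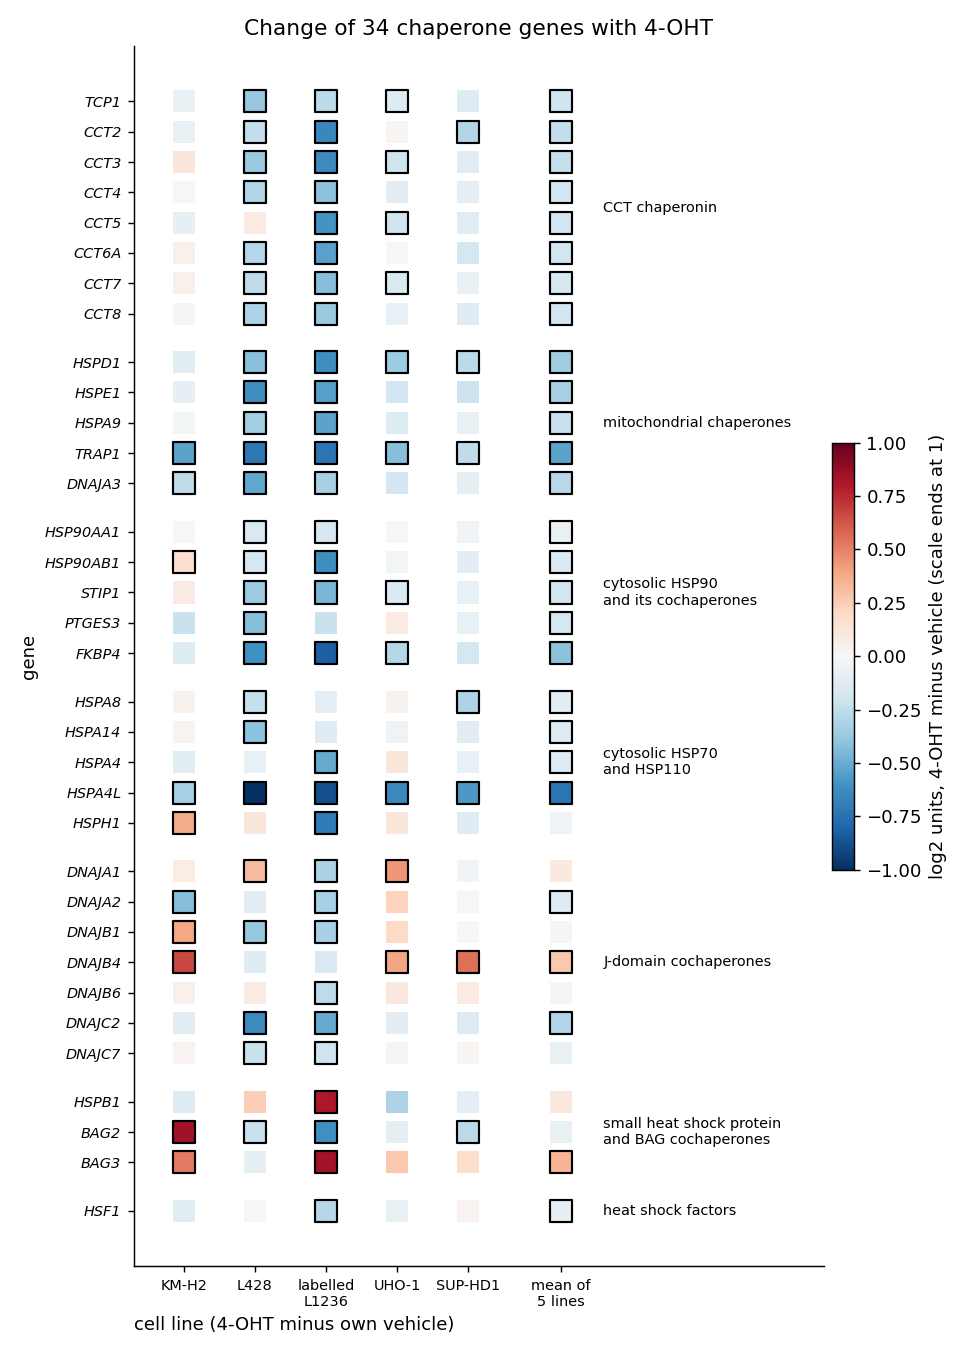
Change of each of 34 chaperone genes (rows, grouped by role) in each line and on the mean of the 5 lines, as log2 4-OHT minus vehicle on a colour scale from −1 (blue) to 1 (red), with a black frame where limma's adjusted p was below 0.05. Frames fill most of the L428 and L1236 columns, and TRAP1 and HSPA4L are framed in blue in all 5 lines.

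All 5 mitochondrial chaperones fell on average (21.2% of all genes did), with TRAP1, HSPD1 and HSPE1 changed most. TRAP1, the mitochondrial HSP90, had log2 signals of 10.19 and 10.14 in 4-OHT arrays of KM-H2 against 10.75 and 10.65 with vehicle, and of 10.35 and 10.20 in 4-OHT arrays of L428 against 11.02 and 10.97 with vehicle. Its signals were 9.83 and 9.78 with 4-OHT against 10.57 and 10.49 with vehicle in the line labelled L1236, and 10.30 and 10.29 against 10.72 and 10.71 in UHO-1. They were 10.58 and 10.56 with 4-OHT against 10.80 and 10.84 with vehicle in SUP-HD1. Every 4-OHT array thus lay below both vehicle arrays of its line, in all 5 lines. The change averaged −0.53 ± 0.025 (SE, limma adjusted p = 1.03e-13), from −0.25 in SUP-HD1 to −0.73 in the line labelled L1236, and was −0.48 without that line. The fall in SUP-HD1 (limma adjusted p = 0.00617) was lost without its 4-OHT array 1, 4-OHT array 2 or vehicle array 2 (limma adjusted p 0.0525, 0.0712 and 0.0531). TRAP1 has a second, dimmer probe set (mean 5.81, against 10.49 for the one used), whose average change was −0.15, with 0.001 in KM-H2, and which passed in no line.

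HSPD1 encodes HSP60, the chaperonin of the matrix. It had 11.58 and 11.40 in 4-OHT arrays of KM-H2 against 11.63 and 11.57 with vehicle, and 11.77 and 11.90 in 4-OHT arrays of L428 against 12.25 in both vehicle arrays. In the line labelled L1236 it had 10.82 and 10.83 with 4-OHT against 11.46 and 11.44 with vehicle, and in UHO-1 10.92 and 10.99 against 11.35 and 11.29. In SUP-HD1 it had 10.92 and 10.88 with 4-OHT against 11.15 and 11.20 with vehicle. The arms overlapped in KM-H2 and stood apart, with 4-OHT lower, in the other 4 lines. The average change was −0.36 ± 0.025 (SE, limma adjusted p = 9.4e-11), or −0.29 without the line labelled L1236. It passed in 4 lines, all but KM-H2 (−0.11, limma adjusted p = 0.191). In SUP-HD1 the call was lost without 4-OHT array 2 (limma adjusted p = 0.0625), and KM-H2 passed without its 4-OHT array 1 (limma adjusted p = 0.0231).

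HSPE1, which encodes the HSP10 lid and shares a promoter region with HSPD1, changed by −0.33 ± 0.049 (SE) on average and fell in L428 (−0.62) and in the line labelled L1236 (−0.55). HSPA9, the mitochondrial HSP70 known as mortalin, changed by −0.22 on average and fell in the same lines, by 0.34 in L428 and 0.53 in the line labelled L1236. DNAJA3, its J-domain partner, changed by −0.28 on average and fell in KM-H2 (−0.26), L428 (−0.52) and the line labelled L1236 (−0.33). Its call in KM-H2 was lost without vehicle array 1 or either 4-OHT array (limma adjusted p 0.0621 to 0.22). Without the line labelled L1236 the averages were −0.28 for HSPE1, −0.15 for HSPA9 and −0.26 for DNAJA3, and all 3 still passed (limma adjusted p at most 0.000111).

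**Figure D3:**
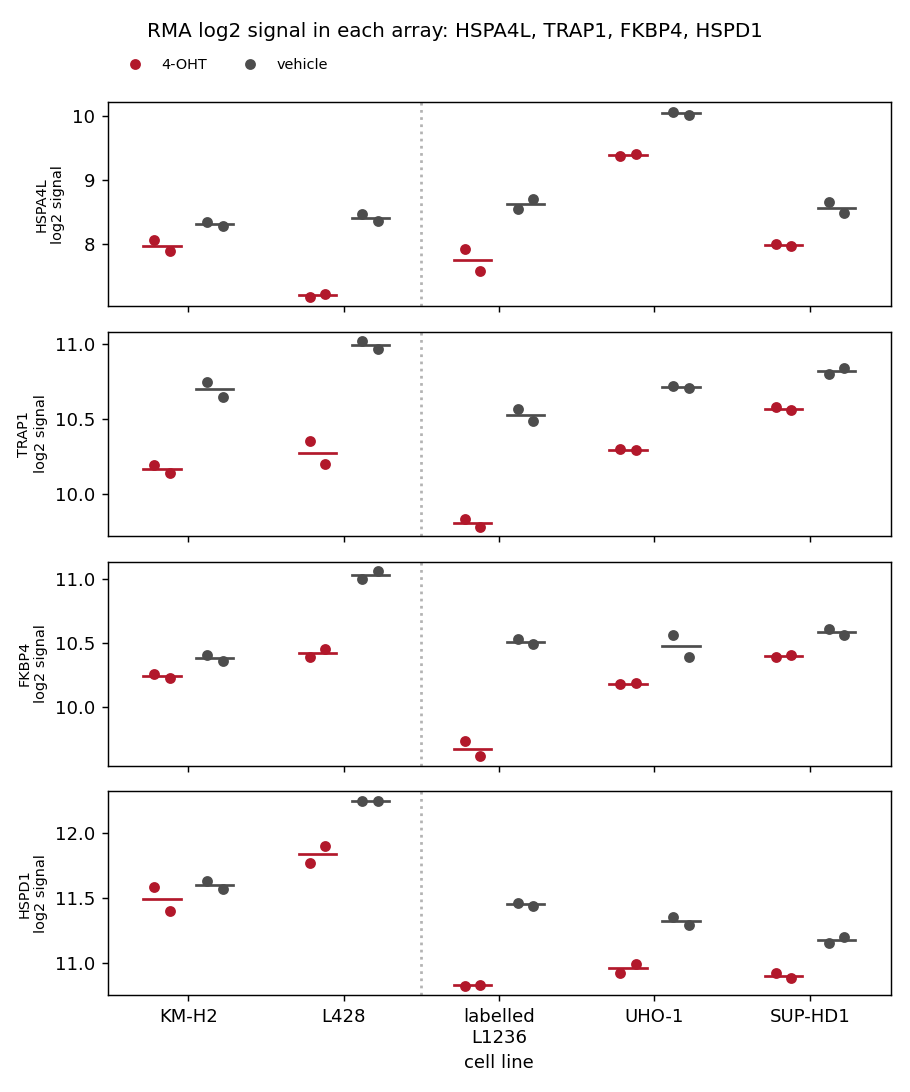
RMA log2 signal of HSPA4L, TRAP1, FKBP4 and HSPD1 in each array, with 4-OHT in red to the left of vehicle in grey in each line, a point per array and a bar at the mean of 2. The dotted line parts the 2 sets of arrays that were normalised separately, across which levels are not compared, and red points lie below grey ones throughout except in KM-H2 for HSPD1, where the arms overlap.

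Of the cytosolic HSP70 and HSP110 genes, HSPA4L changed most. HSPA4L, an HSP110 protein that acts as an exchange factor for HSP70, had 8.07 and 7.89 in 4-OHT arrays of KM-H2 against 8.34 and 8.28 with vehicle, and 7.18 and 7.23 in 4-OHT arrays of L428 against 8.47 and 8.36 with vehicle. It had 7.92 and 7.58 with 4-OHT against 8.55 and 8.71 with vehicle in the line labelled L1236, and 9.37 and 9.41 against 10.06 and 10.01 in UHO-1. SUP-HD1 gave 8.0 and 7.98 with 4-OHT against 8.65 and 8.48 with vehicle. The arms stood apart in all 5 lines, with 4-OHT lower. The change was −1.21 ± 0.097 (SE) in L428, a signal 2.31-fold lower, and −0.88 in the line labelled L1236, −0.64 in UHO-1, −0.33 in KM-H2 and −0.58 in SUP-HD1, the largest of any member by absolute value in every line but KM-H2. It passed in all 5 lines and averaged −0.73 ± 0.043 (SE, limma adjusted p = 6.09e-12), or −0.69 without the line labelled L1236. The call in KM-H2 (limma adjusted p = 0.015) was lost without vehicle array 1 (limma adjusted p = 0.11) or 4-OHT array 2 (limma adjusted p = 0.194).

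HSPA4L and TRAP1 were the 2 members that fell in all 5 lines (2 of 34, 5.88%, against 0.24% of all genes) and in the 4 lines other than that labelled L1236 (0.423% of all genes). By limma's test 0 members rose in all 5 lines, against 0.334% of all genes, or in those 4 lines, against 0.927%.

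HSPA8, the constitutive HSP70, changed by −0.11 on average (−0.12 without the line labelled L1236) and fell in L428 (−0.24) and SUP-HD1 (−0.31). In SUP-HD1 it had 12.75 and 12.80 with 4-OHT against 13.18 and 12.99 with vehicle, so the arms stood apart. HSPA14, an HSP70 that works at the ribosome, changed by −0.13 on average (−0.13 without the line labelled L1236) and passed in 1 line, L428 (−0.41), without which its average did not pass (limma adjusted p = 0.311). HSPA4, another HSP110 protein, also changed by −0.13 on average. It passed in the line labelled L1236 alone (−0.51), and without it the average was −0.04 (limma adjusted p = 0.369).

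HSPH1, the third HSP110 gene, moved both ways. It had 10.89 and 10.73 with 4-OHT against 10.43 and 10.45 with vehicle in KM-H2, and 10.18 and 10.12 against 10.77 and 10.95 in the line labelled L1236. It had 10.52 and 10.49 with 4-OHT against 10.38 and 10.41 with vehicle in L428, and 11.43 and 11.40 against 11.30 and 11.29 in UHO-1. SUP-HD1 had 9.90 and 9.86 with 4-OHT against 10.11 and 9.90 with vehicle. The 4-OHT arrays lay above vehicle in KM-H2, L428 and UHO-1 and below it in the line labelled L1236, and the arms met in SUP-HD1. HSPH1 rose by 0.37 in KM-H2 (limma adjusted p = 0.000194) and fell by 0.71 in the line labelled L1236 (limma adjusted p = 3.74e-08), so that its average of −0.05 did not pass (limma adjusted p = 0.253). Without the line labelled L1236 the average was 0.12 and passed (limma adjusted p = 0.00503).

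Of the cytosolic HSP90 group, all 5 measured genes fell on average and in L428, and 4 in the line labelled L1236. Of all genes, 21.2% fell on average, 17.5% in L428 and 14.9% in the line labelled L1236. FKBP4, a cochaperone that carries steroid receptors on HSP90, had 10.26 and 10.23 with 4-OHT against 10.41 and 10.36 with vehicle in KM-H2, and 10.39 and 10.45 against 11 and 11.06 in L428. It had 9.74 and 9.62 with 4-OHT against 10.53 and 10.49 with vehicle in the line labelled L1236, and 10.18 and 10.19 against 10.56 and 10.39 in UHO-1. In SUP-HD1 it had 10.39 and 10.41 with 4-OHT against 10.61 and 10.56 with vehicle. The arms stood apart in all 5 lines, with 4-OHT lower. FKBP4 passed in the line labelled L1236 (−0.83), L428 (−0.61) and UHO-1 (−0.29), and not in SUP-HD1 (−0.18, limma adjusted p = 0.0824) or KM-H2 (−0.14, limma adjusted p = 0.105). Its average was −0.41 ± 0.027 (SE, limma adjusted p = 2.69e-11), or −0.31 without the line labelled L1236.

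HSP90AB1, the constitutive HSP90, had 12.61 and 12.59 with 4-OHT against 12.39 and 12.48 with vehicle in KM-H2, and 12.91 and 12.92 against 13.09 and 13.10 in L428. It had 11.87 and 11.77 with 4-OHT against 12.42 and 12.46 with vehicle in the line labelled L1236, and 12.52 and 12.54 against 12.57 and 12.54 in UHO-1. SUP-HD1 had 11.97 and 11.99 with 4-OHT against 12.19 and 11.98 with vehicle. The 4-OHT arrays were higher in KM-H2, lower in L428 and the line labelled L1236, and mixed with vehicle in UHO-1 and SUP-HD1. The change was 0.17 in KM-H2 (limma adjusted p = 0.0236), −0.18 in L428 (limma adjusted p = 0.0109) and −0.62 in the line labelled L1236 (limma adjusted p = 5.55e-09). The call in KM-H2 was lost without vehicle array 1 or either 4-OHT array (limma adjusted p 0.24, 0.129 and 0.06), and that in L428 without 4-OHT array 1 or either vehicle array (limma adjusted p 0.0652, 0.0511 and 0.0605). The average of −0.15 passed over 5 lines (limma adjusted p = 1.28e-05) and was −0.04 without the line labelled L1236 (limma adjusted p = 0.301).

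STIP1, which links HSP70 to HSP90, changed by −0.19 on average (−0.13 without the line labelled L1236) and fell in L428 (−0.36), the line labelled L1236 (−0.45) and UHO-1 (−0.15). The call in UHO-1 (limma adjusted p = 0.045) was lost without any 1 of its 4 arrays (limma adjusted p 0.0656 to 0.255). PTGES3, the p23 cochaperone, changed by −0.17 (−0.16 without that line) and passed in L428 alone (−0.42), without which the average did not pass (limma adjusted p = 0.0966). HSP90AA1, the stress-inducible HSP90, changed by −0.07 on average (limma adjusted p = 0.0181) and fell by 0.16 in L428 and 0.17 in the line labelled L1236. The call in L428 was lost without either vehicle array or 4-OHT array 1 (limma adjusted p 0.086 to 0.17) and with cyclic loess (−0.04, limma adjusted p = 0.668). That in the line labelled L1236 was lost without either 4-OHT array, and without vehicle array 2, where the change was −0.06 (limma adjusted p = 0.511). Its average without the line labelled L1236 was −0.05 (limma adjusted p = 0.0976), and without UHO-1 vehicle array 2 limma's adjusted p was 0.0547.

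The CCT chaperonin folds actin, tubulin and other cytosolic proteins in stacked rings of 8 different subunits. All 8 subunit genes fell on average (21.2% of all genes did), from −0.17 for CCT7 to −0.25 for CCT2. All 8 also fell without the line labelled L1236 (21% of all genes did), from −0.08 for CCT5 (limma adjusted p = 0.0455) to −0.18 for TCP1. In the line labelled L1236 all 8 fell (14.9% of all genes did), from −0.27 for TCP1 to −0.65 for CCT2. In L428 7 fell (17.5% of all genes did), from −0.25 for CCT2 to −0.38 for TCP1. The call of CCT2 in L428 was lost with cyclic loess (−0.13, limma adjusted p = 0.0594). Averages without the line labelled L1236 were −0.15 for CCT2, −0.14 for CCT3, −0.13 for CCT4, −0.11 for CCT6A, −0.11 for CCT7 and −0.13 for CCT8. CCT5 was the exception in L428, at 0.09 (limma adjusted p = 0.351), and was higher there with cyclic loess (0.21, limma adjusted p = 0.00478) or quantile normalisation (0.15, limma adjusted p = 0.0437). UHO-1, where 11.1% of all genes fell, had 4 lower subunit genes, TCP1 (−0.14), CCT3 (−0.20), CCT5 (−0.20) and CCT7 (−0.16). All 4 of these calls were lost when single arrays of UHO-1 were left out, with CCT5 at −0.13 without vehicle array 1 (limma adjusted p = 0.27) and TCP1 at −0.09 without 4-OHT array 2 (limma adjusted p = 0.294), and those of TCP1, CCT5 and CCT7 with median centring (limma adjusted p 0.121, 0.0798 and 0.0591). SUP-HD1 had 1, CCT2, with 10.10 and 10.06 with 4-OHT against 10.43 and 10.32 with vehicle and a change of −0.30 (limma adjusted p = 0.00384), lost without 4-OHT array 2 or vehicle array 1 (limma adjusted p 0.0625 and 0.0667). KM-H2 had 0 of 8 by limma's adjusted p, and 1 subunit gene (CCT3, higher by 0.12) at an unadjusted p below 0.05. Of all genes, 2.35% fell in SUP-HD1 and 12.3% in KM-H2. CCT4 changed by −0.19, CCT6A by −0.19 and CCT8 by −0.18 on average, and each fell in L428 and the line labelled L1236 but in no other line. The call of CCT8 in L428 was lost without vehicle array 2 (limma adjusted p = 0.062).

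J-domain proteins, which deliver clients to HSP70 and set off its ATPase, moved in both directions. On average 2 of 7 fell (DNAJC2, −0.30, and DNAJA2, −0.13), 1 rose (DNAJB4, 0.27) and 4 did not pass. Of all genes, 21.2% fell and 17.4% rose, so for so few genes these counts lie near the background. DNAJC2, a partner of the ribosome-bound HSP70 known as MPP11, fell in L428 (−0.64) and the line labelled L1236 (−0.51), and averaged −0.25 without the line labelled L1236. DNAJA2 had 8.55 and 8.40 with 4-OHT against 8.98 and 8.82 with vehicle in KM-H2, a change of −0.42 (limma adjusted p = 0.00104). It also fell in the line labelled L1236 (−0.33), a call lost without 4-OHT array 2 or vehicle array 2 (limma adjusted p 0.189 and 0.0854), and its average without that line was −0.08 (limma adjusted p = 0.162).

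DNAJB4 had 6.64 and 6.35 with 4-OHT against 5.93 and 5.72 with vehicle in KM-H2, 7.26 and 7.30 against 6.85 and 6.92 in UHO-1, and 8.81 in both 4-OHT arrays against 8.36 and 8.16 in SUP-HD1. The arms stood apart in these 3 lines, where DNAJB4 rose by 0.67, 0.40 and 0.55, while it did not pass in L428 (−0.12, limma adjusted p = 0.547) or the line labelled L1236 (−0.14, limma adjusted p = 0.512). The call in UHO-1 was lost without any 1 of its 4 arrays (change 0.36 to 0.43, limma adjusted p 0.0737 to 0.115), and that in SUP-HD1 without 3 of its 4 arrays (limma adjusted p 0.0631 to 0.095), where the change stayed at 0.45 or above. The average without the line labelled L1236 was 0.37 (limma adjusted p = 1.21e-05).

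DNAJA1, a cytosolic HSP40 with the 3-unit heat shock element in its promoter window, had 10.36 and 10.30 with 4-OHT against 10.27 and 10.24 with vehicle in KM-H2, and 10.04 and 10.21 against 9.78 and 9.85 in L428. It had 10.05 and 9.80 with 4-OHT against 10.23 and 10.24 with vehicle in the line labelled L1236, and 10.95 and 11.09 against 10.49 and 10.66 in UHO-1. SUP-HD1 had 10.15 and 10.06 with 4-OHT against 10.31 and 9.97 with vehicle. The 4-OHT arrays lay above vehicle in KM-H2, L428 and UHO-1, below it in the line labelled L1236 and within it in SUP-HD1. DNAJA1 rose in UHO-1 (0.44, limma adjusted p = 0.00142) and L428 (0.31, limma adjusted p = 0.0111) and fell in the line labelled L1236 (−0.31, limma adjusted p = 0.0144). The call in L428 was lost without vehicle array 1 or 4-OHT array 2 (limma adjusted p 0.0831 and 0.157), and that in the line labelled L1236 without either vehicle array or 4-OHT array 2 (limma adjusted p 0.0551, 0.0666 and 0.285). The average was 0.10 (limma adjusted p = 0.0711), and 0.20 without the line labelled L1236 (limma adjusted p = 0.00105).

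DNAJB1, the stress-inducible HSP40, had 9.54 and 9.49 with 4-OHT against 9.21 and 9.04 with vehicle in KM-H2, and 9.53 and 9.36 against 9.85 and 9.79 in L428. It had 9.44 and 9.26 with 4-OHT against 9.64 and 9.70 with vehicle in the line labelled L1236, and 9.46 and 9.50 against 9.22 and 9.34 in UHO-1. SUP-HD1 had 8.78 and 8.61 with 4-OHT against 8.75 and 8.64 with vehicle. Above vehicle in KM-H2 and UHO-1 and below it in L428 and the line labelled L1236, the 4-OHT arrays bracketed vehicle in SUP-HD1. DNAJB1 rose in KM-H2 (0.39, limma adjusted p = 0.000907) and fell in L428 (−0.38, limma adjusted p = 0.00092) and the line labelled L1236 (−0.32, limma adjusted p = 0.00512), and averaged −0.02 (limma adjusted p = 0.681) or 0.05 without the line labelled L1236. The call in that line was lost without 4-OHT array 2 or vehicle array 2 (limma adjusted p 0.125 and 0.0513). DNAJB6 averaged 0.01 over the 5 lines and DNAJC7 −0.07, and neither passed (limma adjusted p 0.808 and 0.0838). Without the line labelled L1236 they averaged 0.08 and −0.04, and DNAJC7 passed without SUP-HD1 (−0.10, limma adjusted p = 0.0341). DNAJB6 fell in the line labelled L1236 (−0.26) and DNAJC7 there (−0.21) and in L428 (−0.22). Each of these calls was lost when single arrays of the line were left out, with DNAJC7 in the line labelled L1236 at −0.10 without vehicle array 2 (limma adjusted p = 0.541), and there also with the replicate block (limma adjusted p = 0.0581). DNAJB6 has a second probe set (mean 9.18, against 10.43 for the one used). With it DNAJB6 rose in KM-H2 (0.24, limma adjusted p = 0.0297) and still fell in the line labelled L1236 (−0.375).

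**Figure D4:**
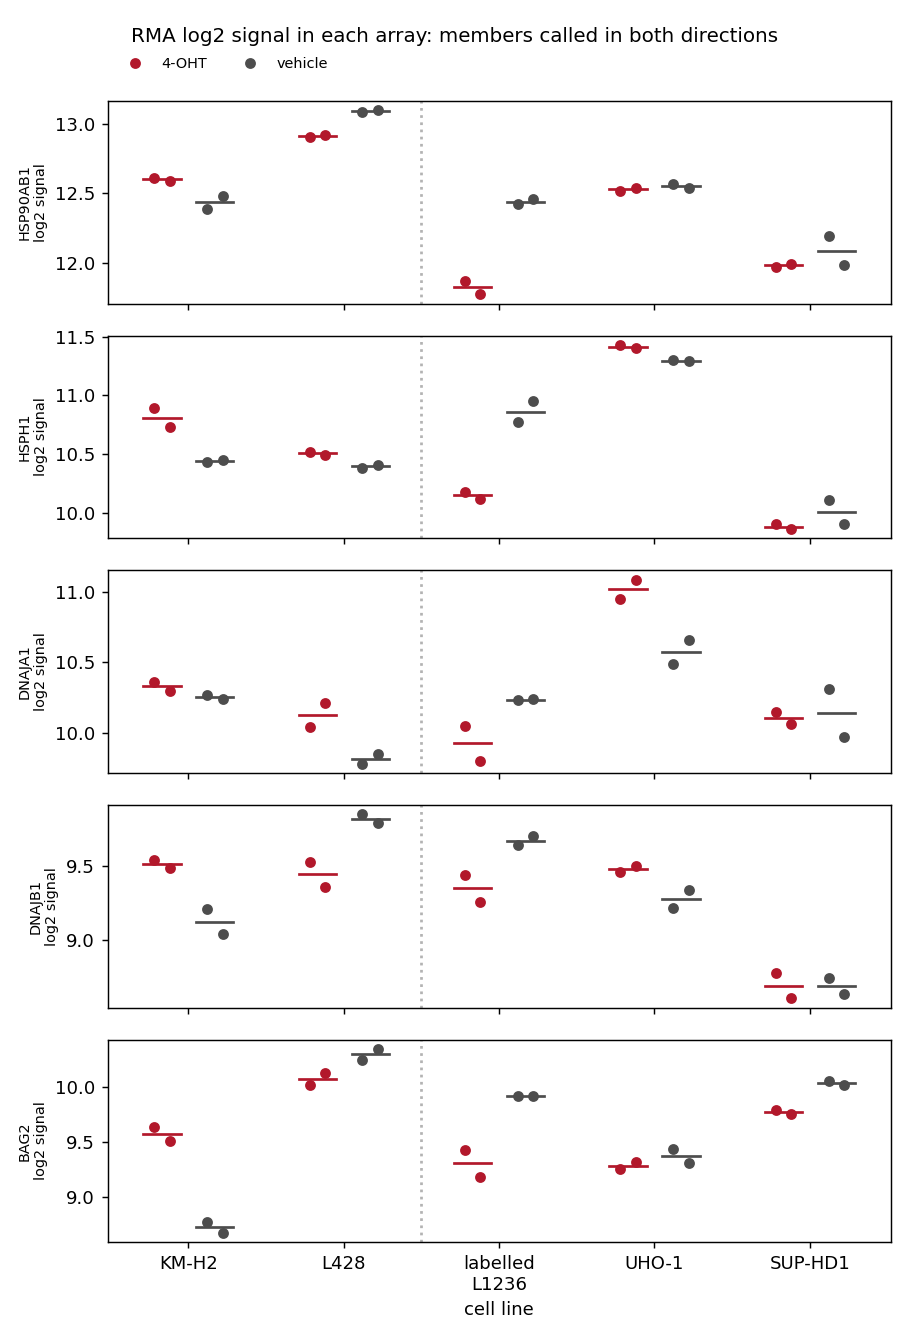
RMA log2 signal in each array of the 5 chaperone genes that rose in one line and fell in another, with 4-OHT in red to the left of vehicle in grey, a point per array and a bar at the mean of 2. In KM-H2 the red points of HSP90AB1, HSPH1, DNAJB1 and BAG2 lie above the grey ones, and in the line labelled L1236 those of all 5 genes lie below.

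BAG proteins release clients from HSP70, and HSPB1 is the small heat shock protein HSP27, which holds unfolded proteins in solution. BAG2, an exchange factor that holds back the ubiquitin ligase CHIP, had 9.64 and 9.51 with 4-OHT against 8.77 and 8.67 with vehicle in KM-H2, and 10.02 and 10.13 against 10.25 and 10.35 in L428. It had 9.43 and 9.18 with 4-OHT against 9.92 in both vehicle arrays of the line labelled L1236, and 9.25 and 9.32 against 9.44 and 9.31 in UHO-1. SUP-HD1 had 9.79 and 9.76 with 4-OHT against 10.06 and 10.02 with vehicle. The arms stood apart in 4 lines, with 4-OHT higher in KM-H2 and lower in L428, SUP-HD1 and the line labelled L1236, and they overlapped in UHO-1. BAG2 rose in KM-H2 by 0.85 ± 0.076 (SE, limma adjusted p = 8.52e-09), a signal 1.80-fold higher and the largest change of a member there. It fell in the line labelled L1236 (−0.62, limma adjusted p = 1.88e-06), SUP-HD1 (−0.27, limma adjusted p = 0.0387) and L428 (−0.22, limma adjusted p = 0.0292). The call in SUP-HD1 was lost without any 1 of its 4 arrays (limma adjusted p 0.0881 to 0.231), and that in L428 without 4-OHT array 1 or vehicle array 2 (limma adjusted p 0.231 and 0.221). The average was −0.07 (limma adjusted p = 0.117), and 0.07 without the line labelled L1236 (limma adjusted p = 0.131).

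BAG3, which directs HSP70 clients to autophagy, had 7.86 and 7.76 with 4-OHT against 7.20 and 7.40 with vehicle in KM-H2, and 8.27 and 8.15 against 7.30 and 7.44 in the line labelled L1236. The arms stood apart in both, and BAG3 rose by 0.52 in KM-H2 and 0.84 in the line labelled L1236. It did not pass in UHO-1 (0.27, limma adjusted p = 0.0616), SUP-HD1 (0.18, limma adjusted p = 0.442) or L428 (−0.09, limma adjusted p = 0.614), and averaged 0.34 (limma adjusted p = 2.36e-06) or 0.22 without the line labelled L1236. In UHO-1 the adjusted p was 0.0337 without L428 4-OHT array 1 and 0.0333 without L428 4-OHT array 2. HSPB1 had 9.79 and 10.10 with 4-OHT against 9.39 and 8.89 with vehicle in the line labelled L1236, where it rose by 0.81. It passed in no other line in the main fit. Its change of −0.31 in UHO-1 (limma adjusted p = 0.0793) passed with that line fitted alone (limma adjusted p = 0.00118). In the other direction, its change of 0.25 in L428 (limma adjusted p = 0.162) passed with L428 fitted alone (limma adjusted p = 0.016). It also passed with KM-H2 and L428 fitted alone (limma adjusted p = 0.00856). The average of HSPB1 did not pass (0.10, limma adjusted p = 0.164), was −0.07 without the line labelled L1236 (limma adjusted p = 0.243), and passed without UHO-1 (0.21, limma adjusted p = 0.0205). HSF1, the main heat shock factor, changed by −0.09 on average (limma adjusted p = 0.0137). It passed in the line labelled L1236 alone (−0.29), and without it the average was −0.04 (limma adjusted p = 0.302).

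The 5 genes that rose in one line and fell in another (HSP90AB1, HSPH1, DNAJA1, DNAJB1 and BAG2) were 14.7% of the 34, against 8.12% of all genes. Leaving out the line labelled L1236 left 3 (HSP90AB1, DNAJB1 and BAG2), against 3.98% of all genes. Differences between lines were tested directly with an F test in limma. The response differed between lines for 30 of 34 genes (42.7% of all genes did), and for 27 of 34 among the 4 lines other than that labelled L1236 (36.4% of all genes). BAG2 had the smallest adjusted p (4.27e-09), before HSPH1 (6.7e-08) and HSP90AB1 (2.55e-07), and DNAJB6 (0.0582), HSF1 (0.0522), DNAJC7 (0.0848) and HSP90AA1 (0.0979) did not pass. With its second probe set DNAJB6 passed this test (limma adjusted p = 0.000896), and it rose in KM-H2 and fell in the line labelled L1236.

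Levels without 4-OHT were compared only within a set of arrays normalised together. With vehicle, KM-H2 was lower than L428 for 19 of 34 genes (26.9% of all genes were) and higher for 8 (27.3% of all). HSPB1 was 12.08 and 11.96 in KM-H2 and 9.95 and 10.13 in L428, a difference of 1.98 ± 0.127 (SE, KM-H2 minus L428), and DNAJB6 was 11.47 and 11.50 in KM-H2 and 10.44 and 10.43 in L428, a difference of 1.05. Both genes stood apart between the lines by far more than the replicates. At the other end DNAJC2 was 7.06 and 7.21 in KM-H2 and 8.77 and 8.87 in L428, a difference of −1.68, and BAG2 differed by −1.57. HSPD1 (−0.65), FKBP4 (−0.64), HSPE1 (−0.61), CCT3 (−1.04) and CCT2 (−0.80) were lower in KM-H2 with vehicle, and DNAJA3 (0.78) and CCT7 (0.54) were higher. HSPA4L (−0.11, limma adjusted p = 0.395) and STIP1 (0.01, limma adjusted p = 0.916) did not pass. The vehicle arrays of KM-H2 and L428 are also the base of their 4-OHT changes, so the 2 sets of values are not independent.

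**Figure D5:**
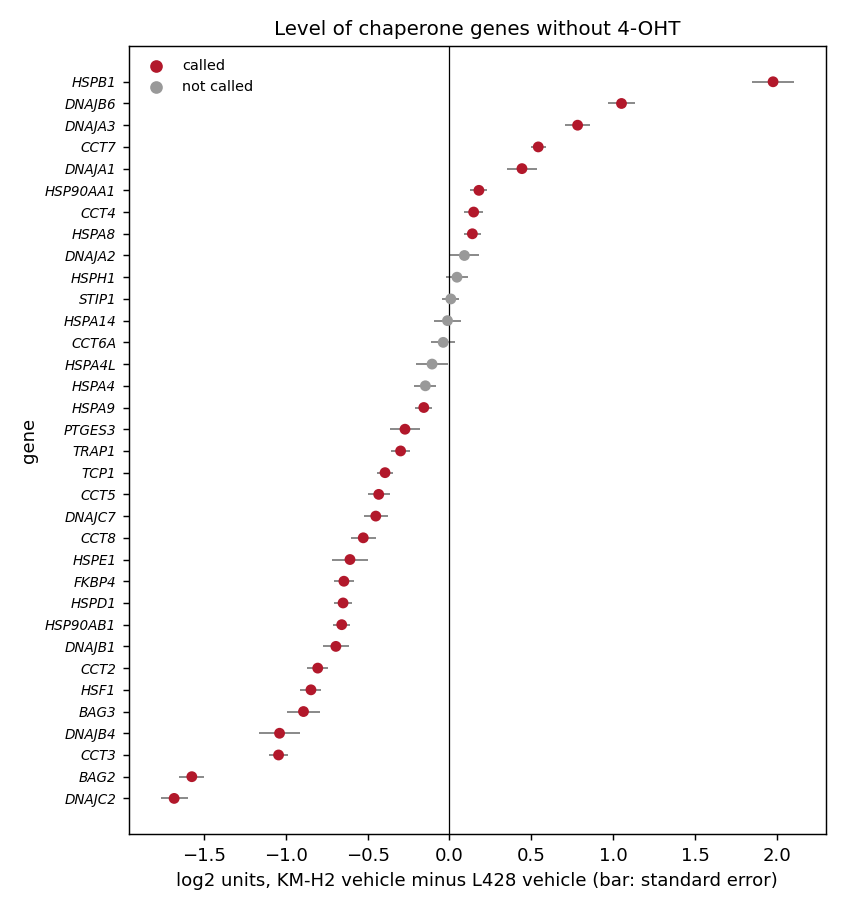
Difference in log2 signal between vehicle arrays of KM-H2 and of L428 for 34 chaperone genes, KM-H2 minus L428, with a point per gene, a bar of 1 standard error, and red where limma's adjusted p was below 0.05. The points run from −1.68 for DNAJC2 to 1.98 for HSPB1, with 19 red points below 0 and 8 above.

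Among vehicle arrays of UHO-1, SUP-HD1 and the line labelled L1236, 30 of 34 genes differed (70.4% of all genes did). Between UHO-1 and SUP-HD1 alone, 19 were higher in UHO-1 (27.9% of all genes were) and 7 lower (27.2% of all). HSPB1 was 12.42 and 12.37 in UHO-1 and 8.77 and 9.17 in SUP-HD1, a difference of 3.42 ± 0.094 (SE, limma adjusted p = 2.36e-17), and HSPA4L was 1.47 higher in UHO-1. DNAJB4 was 6.85 and 6.92 in UHO-1 and 8.36 and 8.16 in SUP-HD1, a difference of −1.37. These 3 genes, named for their large differences, did not overlap between the lines, and the share of all genes without overlap was not counted.

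Chaperone genes outside the 36 gave a mixed picture. Of 71 such genes tested outside the endoplasmic reticulum, 26 fell on average (36.6%, against 21.2% of all genes) and 9 rose (12.7%, against 17.4%). Without the line labelled L1236, 22 of the 71 fell (21% of all genes did) and 14 rose (18.2% of all). Each named gene that passed over 5 lines also passed without that line, PFDN4 at 0.43 and TBCD at −0.10 among them. Partners and proteases of the mitochondrial chaperones had 9 lower and 1 higher of 15, among them GRPEL1, the exchange factor of mitochondrial HSP70 (−0.35), and LONP1, a matrix protease (−0.30). Prefoldins and CCT assistants had 4 lower and 1 higher of 11, with PFDN2 at −0.23 and PFDN4 at 0.27. Further HSP90 cochaperones had 4 lower and 1 higher of 8, with NUDC at −0.22 and PPP5C at −0.16. Tubulin cofactors had 1 lower of 5, with TBCD at −0.20 and TBCC at 0.11 (limma adjusted p = 0.0777). Whether these groups differ from the 34 genes was not tested. Further HSP70 genes and exchange factors had 4 lower and 1 higher of 9, with BAG4 at −0.20 and HSPBP1 at −0.22. Further J-domain genes had 3 lower and 5 higher of 17, with DNAJB14 at 0.30 and DNAJB5 at −0.22. Of small heat shock and HSF genes 1 of 6 fell, HSPB8 (−0.42), and HSBP1 was at 0.09 (limma adjusted p = 0.107). Of 11 chaperones of the endoplasmic reticulum 6 fell and 1 rose, with PDIA6 at −0.26 and DNAJC3 at 0.44. Without the line labelled L1236, 3 of the 11 fell (21% of all genes did) and 1 rose (18.2% of all). The stress-inducible HSPA1A and HSPA1B share probe sets and were not tested.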

How the data were processed

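Total RNA from 5 lines labelled as classical Hodgkin lymphoma was hybridised to Affymetrix Human Gene 1.0 ST arrays, 20 in all. The authors deposited RMA values on the log2 scale, per the labels, and its version and the genome build are not given in the sources used here. RMA corrects background, normalises between arrays and summarises probes. Medians of 5.67 to 5.71 in 8 arrays (KM-H2 and L428) and of 6.26 to 6.41 in the other 12 show that the 2 sets were normalised separately. Levels of the chaperone genes were therefore compared only within a set. The marker check of the line labelled L1236 did compare levels across the 2 sets, so the difference between the sets bears on it. Levels of different genes were not compared.

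Of 33268 probe sets, 19457 had 1 gene symbol in the platform annotation, 1751 several and 12060 none listed. Symbols were checked through Entrez identifiers in the RefSeq table of GRCh38.p14 (19426 matched, 0 changed). Where a gene had several probe sets (767 genes), that of highest mean was used. Genes at a log2 value of at least 5 in at least 2 arrays were tested with limma 3.58.1 in R 4.3.3, in 1 model of 10 group means (lmFit and trended eBayes) that leaves 10 residual degrees of freedom. The contrasts took 4-OHT minus vehicle within each line, the mean of these, an F test of the difference between lines, and vehicle levels within each set. P-values were adjusted over the 15850 genes (Benjamini-Hochberg), errors are limma's standard errors, and the script was tested on simulated data. Arrays have no read depth: 2 arrays a group limit the precision, and the SD of the difference between the 2, over genes, was 0.133 to 0.204.

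The 36 genes, the lists of other chaperones and the tests were chosen with earlier results of these data known. Every one of the 36 is named. Values in each array are given for the 4 of smallest adjusted p that moved one way in all lines, for genes that moved in opposite directions, for the largest change in each line and for some values beside these, chosen after they were seen. Of each list of other chaperones the 2 genes of smallest p are named. Alternatives were other normalisations (median centring, cyclic loess, quantile), floors, probe set rules, no intensity trend, a replicate block, fits of some lines alone and leaving out each array or line. The comparison of UHO-1 with SUP-HD1 and the counts over 4 lines were added after the data were seen.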

Additional observations from a re-analysis of the deposited data

Results flagged for a closer look

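By the F test in limma, the response to 4-OHT differed between the 5 lines for 30 of the 34 chaperone genes (adjusted p given for each). Of all genes, 42.7% passed the same test. All 8 CCT subunits did: CCT3 (1.09e-06), CCT2 (2.18e-05), CCT7 (2.98e-05), CCT5 (5.44e-05), CCT6A (0.00051), CCT4 (0.00213), TCP1 (0.00476) and CCT8 (0.0378). Among them, CCT3 changed by −0.64 in the line labelled L1236 and by 0.12 in KM-H2. The mitochondrial chaperones were HSPA9 (2.62e-05), TRAP1 (0.000114), HSPD1 (0.000268), HSPE1 (0.0194) and DNAJA3 (0.0219). TRAP1 differed in size alone, since it fell in every line.

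In the HSP90 group they were HSP90AB1 (2.55e-07), FKBP4 (1.4e-06), STIP1 (2.4e-05) and PTGES3 (0.034). In the HSP70 and HSP110 group they were HSPH1 (6.7e-08), HSPA4 (0.000222), HSPA4L (0.000235), HSPA8 (0.000979) and HSPA14 (0.0304). HSPA4L ran from −1.21 in L428 to −0.33 in KM-H2. The J-domain genes were DNAJB1 (2.88e-05), DNAJA1 (0.000448), DNAJB4 (0.000792), DNAJC2 (0.000843) and DNAJA2 (0.00155), and the last group held BAG2 (4.27e-09), HSPB1 (0.000195) and BAG3 (0.000238). Without the line labelled L1236, CCT4, CCT8 and HSPA4 no longer differed between lines (adjusted p 0.0507, 0.166 and 0.157). Without L428, TCP1 (0.139), CCT8 (0.0698), HSPE1 (0.103), DNAJA3 (0.233), PTGES3 (0.192) and HSPA14 (0.667) did not. CCT8 and HSPA14 also lost the test without KM-H2, CCT8 and PTGES3 without UHO-1, and DNAJA3 without SUP-HD1. With no intensity trend it was lost for TCP1 (0.0879), CCT8 (0.0688), PTGES3 (0.13) and HSPA14 (0.0559). The test was also lost with the replicate block for CCT8 (0.0749) and HSPA14 (0.0695), with cyclic loess or quantile normalisation for CCT8 (0.123 and 0.13), HSPA14 (0.0616 and 0.0707), PTGES3 (0.125 and 0.182), HSPE1 (0.0571 and 0.102) and DNAJA3 (0.0742 and 0.0949), and with cyclic loess for TCP1 (0.0585). These genes other than TCP1 also lost it when certain single arrays were left out, with adjusted p up to 0.126. TRAP1 lost it with the mean of its probe sets (0.261) or its dimmer one (0.619).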

How the results depend on the processing

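With 2 arrays a group, counts by line moved more than the averages. Over the 20 fits that each left out 1 array, lower genes numbered 24 to 26 on average (25 with all arrays), 20 to 24 in L428 (24), 22 to 29 in the line labelled L1236 (28), 2 to 5 in KM-H2 (4), 4 to 11 in UHO-1 (9) and 2 to 6 in SUP-HD1 (6). Higher genes numbered 2 to 3 on average (2), 5 to 6 in KM-H2 (6), 0 to 1 in L428 (1), 0 to 1 in SUP-HD1 (1), 1 to 3 in UHO-1 (2) and 2 in the line labelled L1236 (2). The higher gene of L428 was lost without its vehicle array 1 or 4-OHT array 2, that of SUP-HD1 without vehicle array 2 or either 4-OHT array, and 1 of 2 in UHO-1 without any 1 of its 4 arrays. Between vehicle arrays of KM-H2 and L428, 17 to 19 were lower (19) and 6 to 8 higher (8). The response differed between lines for 25 to 32 genes (30), and vehicle levels among UHO-1, SUP-HD1 and the line labelled L1236 for 29 to 30 (30). Of the averages, 23 of 25 lower and 2 of 2 higher genes passed in each of these fits and under each other normalisation, floor, probe set rule, trend and block: HSP90AA1 was lost with cyclic loess (adjusted p = 0.423), quantile normalisation (0.15), no trend (0.108) and without UHO-1 vehicle array 2 (0.0547), and HSF1 with cyclic loess (0.081). Leaving out a whole line ended more: without the line labelled L1236, HSP90AA1 (0.0976), HSP90AB1 (0.301), HSPA4 (0.369), DNAJA2 (0.162) and HSF1 (0.302) did not pass, without L428, HSP90AA1 (0.196), PTGES3 (0.0966) and HSPA14 (0.311), and without KM-H2, DNAJA2 (0.396). From KM-H2 and L428 alone, CCT5 (0.983), HSP90AB1 (0.901), HSPA4 (0.0608), HSF1 (0.384) and BAG3 (0.0538) did not pass, and from the other 3 lines alone HSP90AA1 (0.176), PTGES3 (0.382), HSPA14 (0.213) and DNAJA2 (0.66).

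Median centring gave 5 lower genes in UHO-1 and 5 higher between vehicle arrays of KM-H2 and L428, and no intensity trend gave 5 and 5 too. Higher genes in L428 numbered 4 with cyclic loess, 3 with quantile normalisation, 2 with KM-H2 and L428 fitted alone and 2 with that line alone, and those in UHO-1 numbered 4 with that line alone. Quantile normalisation gave 10 lower genes in SUP-HD1. Higher genes on average numbered 4 without the line labelled L1236, 4 without SUP-HD1 and 4 from KM-H2 and L428 alone. Among averages that passed in 1 setting or the other, the direction turned for CCT5 (0.00145), HSPH1 (0.24) and BAG2 (0.31) from KM-H2 and L428 alone, and for HSPH1 without the line labelled L1236 (0.12). It also turned for TRAP1 in KM-H2 with its dimmer probe set (0.00106). Averages of BAG2 (0.07), DNAJB1 (0.05) and HSPB1 (−0.07) changed sign without the line labelled L1236 but passed neither with nor without it. The cause was not tested beyond what each setting leaves out.

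The labels number the replicates of both arms 1 and 2. Deviations of arrays of the same number correlated at −0.08 in KM-H2, 0.04 in L428, 0.28 in SUP-HD1, 0.29 in UHO-1 and −0.56 in the line labelled L1236. With 1 such value per line, this cannot show whether arrays of the same number were handled as pairs. The main model does not pair them. With the replicate block, counts were 27 lower in the line labelled L1236, 8 lower in UHO-1, 3 higher on average (DNAJA1 added, adjusted p = 0.0234), 29 for the difference between lines and 29 for vehicle levels in the second set, and it changed no other count.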
